A study of Homo sapiens and Mus musculus with 9 samples.

Results

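The regions described here were 417 RNA peaks that HepG2 and LS174T cells shared inside protein-coding genes, in an enhanced crosslinking and immunoprecipitation (eCLIP) study of the pregnane X receptor, PXR. They were selected on overlap, and so on the measured peaks themselves. A HepG2 peak was a member if its summit lay in the span of an hg38 protein-coding gene, if the summit lay in no span of a long noncoding RNA, pseudogene or small RNA, and if the peak overlapped a LS174T peak by at least 1 bp on the same strand. The members were 417 of the 1058 HepG2 peaks in such genes (39.4%, 95% Clopper-Pearson interval 36.5 to 42.4%) and 417 of the 5884 peaks in all 4 lists. They lay in 382 genes, of which 354 held 1 member, 21 held 2 and 7 held 3. The other 641 HepG2 coding-gene peaks met no LS174T peak and are called HepG2-only below, and 1236 LS174T coding-gene peaks met no HepG2 peak and are called LS174T-only.

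HepG2 is a hepatocellular carcinoma line and LS174T a colorectal adenocarcinoma line. For eCLIP, cultured cells were irradiated with ultraviolet light so that proteins became linked to the RNA they touch, RNA was cut with RNase I, and the antibody-bound fragments were sequenced. The HepG2 list stands for 2 HepG2 immunoprecipitates labelled with anti-HA as their antibody. Their titles name PXR as the target, but the labels do not say which protein carries the tag or whether the libraries were pooled. HepG2 also had an input library. LS174T had 1 library each of an anti-PXR immunoprecipitate from wild-type cells, an anti-PXR immunoprecipitate from PXR knockout cells, and a wild-type input without antibody. A liver list from humanized PXR mice was mapped to another genome and was not used here.

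The names and the records of the LS174T lists conflict. The list used for sharing is named as the wild-type immunoprecipitate but is attached to the wild-type input library, and a list of 46 peaks named as the knockout immunoprecipitate is attached to the wild-type PXR immunoprecipitate. Below, WT-named stands for the first of these lists and KO-named for the second. No direction is drawn between genotypes, and a shared peak is not taken as PXR binding. In the HepG2 list of 1557 peaks, 0 of 12 hepatocyte markers held a peak, albumin (ALB), APOA1 and AFP included. Of 12 colon epithelium markers, 5 held one (EPCAM, CDH17, KRT8, KRT18 and KRT19). The HepG2 list had 1058 coding-gene peaks, against 20046 protein-coding genes, so 12 genes would be likely to hold few or none. The 0 of 12 therefore does not set the hepatocyte markers apart. The WT-named list of 2103 peaks held 1 hepatocyte marker (HNF4A) and 8 colon markers, among them TFF3, MUC2, LGALS4 and PHGR1, which had no peak in HepG2. The colon markers KRT20, VIL1 and CDX2 held no peak in either list. KRT8, KRT18 and KRT19 are counted below as epithelial keratins. EPCAM is counted below as a junction gene as well as a colon epithelium gene. These genes therefore do not mark colon alone. A gene without a called peak may still be expressed, so the marker counts do not measure expression. NR1I2, the gene for PXR, held 0 peaks in the human lists.

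PXR is a nuclear receptor that binds drugs and bile acids in liver and intestine and acts with its partner RXR at the promoters of drug-metabolising enzymes and transporters. It is known as a DNA-binding transcription factor, and eCLIP asks a different question, namely which RNA lies against the precipitated protein. An eCLIP peak is a place where sequenced fragments pile up above the local background, and abundant RNAs can give peaks in any precipitate or input.

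The most frequent position of a shared peak was directly downstream of a transcription start, so 11 annotated starts are shown: the 10 with most HepG2 reads among members that began 0 to 50 bp downstream of a start, and RPS12, one of the members with the lowest ratio of HepG2 to LS174T reads. The 50 bases before the start are in lower case and capitals mark the first 30 transcribed bases. Sequences are RefSeq's, build GRCh38.p14, on the strand of the gene, 5′ to 3′.
RPLP1: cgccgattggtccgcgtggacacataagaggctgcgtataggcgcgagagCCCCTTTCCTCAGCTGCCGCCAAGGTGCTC
SET: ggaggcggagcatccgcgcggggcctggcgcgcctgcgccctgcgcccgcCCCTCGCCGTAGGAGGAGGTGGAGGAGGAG
RPS16: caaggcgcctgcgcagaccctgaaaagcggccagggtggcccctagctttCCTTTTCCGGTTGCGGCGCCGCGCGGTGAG
RPS12: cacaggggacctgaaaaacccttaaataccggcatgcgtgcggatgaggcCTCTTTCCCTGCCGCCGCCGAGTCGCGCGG
H2AC11: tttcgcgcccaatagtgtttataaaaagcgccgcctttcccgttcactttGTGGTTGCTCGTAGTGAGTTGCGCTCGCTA
H4C5: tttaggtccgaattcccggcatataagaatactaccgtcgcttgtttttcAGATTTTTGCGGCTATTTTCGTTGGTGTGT
H3-3B: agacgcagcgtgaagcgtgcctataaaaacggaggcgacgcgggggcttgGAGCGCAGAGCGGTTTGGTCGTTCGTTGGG
SLC7A5: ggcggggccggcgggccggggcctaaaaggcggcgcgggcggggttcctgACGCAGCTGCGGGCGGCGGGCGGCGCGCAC
SCD: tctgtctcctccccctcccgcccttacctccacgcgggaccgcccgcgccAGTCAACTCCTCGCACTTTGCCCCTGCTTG
YWHAG: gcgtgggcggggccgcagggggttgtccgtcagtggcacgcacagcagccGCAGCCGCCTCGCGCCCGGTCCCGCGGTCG
EIF3B: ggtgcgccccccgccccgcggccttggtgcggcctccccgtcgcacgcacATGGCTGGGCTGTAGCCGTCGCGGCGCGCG

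These windows were RPLP1 at chr15:69452768-69452847 (+), SET at chr9:128689172-128689251 (+), RPS16 at chr19:39435920-39435999 (-), RPS12 at chr6:132814519-132814598 (+), H2AC11 at chr6:27132993-27133072 (+), H4C5 at chr6:26204560-26204639 (+), H3-3B at chr17:75779750-75779829 (-), SLC7A5 at chr16:87869478-87869557 (-), SCD at chr10:100347183-100347262 (+), YWHAG at chr7:76358962-76359041 (-) and EIF3B at chr7:2354777-2354856 (+). RPLP1, RPS16 and RPS12 encode ribosomal proteins, and their transcripts, like that of the histone chaperone SET, opened with a C followed by 4 pyrimidines, the first letters of the 5′ terminal oligopyrimidine element known from mRNAs of the translation machinery. H2AC11 and H4C5, genes of replication histones, and H3-3B, a histone H3.3 gene, had TATAA within the 40 bases before the start, the core of the TATA box that positions RNA polymerase II. The other starts, in the amino acid transporter SLC7A5, the fatty acid desaturase SCD, the 14-3-3 protein YWHAG and the initiation factor subunit EIF3B, had neither. The upstream edge of the HepG2 peak lay 4 bp past the start in RPS12, 5 bp in RPLP1, 10 bp in RPS16 and 48 bp in YWHAG.

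Among the 316 members on the listed strand of their gene, 178 (56.3%, interval 50.7 to 61.9%) began 0 to 200 bp downstream of the nearest listed start. The share was 39.0% in HepG2-only peaks (174 of 446) and 32.7% in LS174T-only peaks (320 of 978). Members began a median of 135 bp past the nearest start, against 341 bp in HepG2-only and 1404 bp in LS174T-only peaks. Before the nearest start began 12 members, 5 of them within 500 bp of it. A summit had to lie inside a gene span, which left out peaks lying wholly before the span. The rise at the start is therefore partly set by the rule, in every set. The 4 members whose peak covered a start lay in CUX1 and HIPK1, a homeobox gene and a protein kinase gene, SLC11A2, a metal ion transporter gene, and STRBP. These edge distances were chosen after the data were seen and were not tested.

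**Figure D1:**
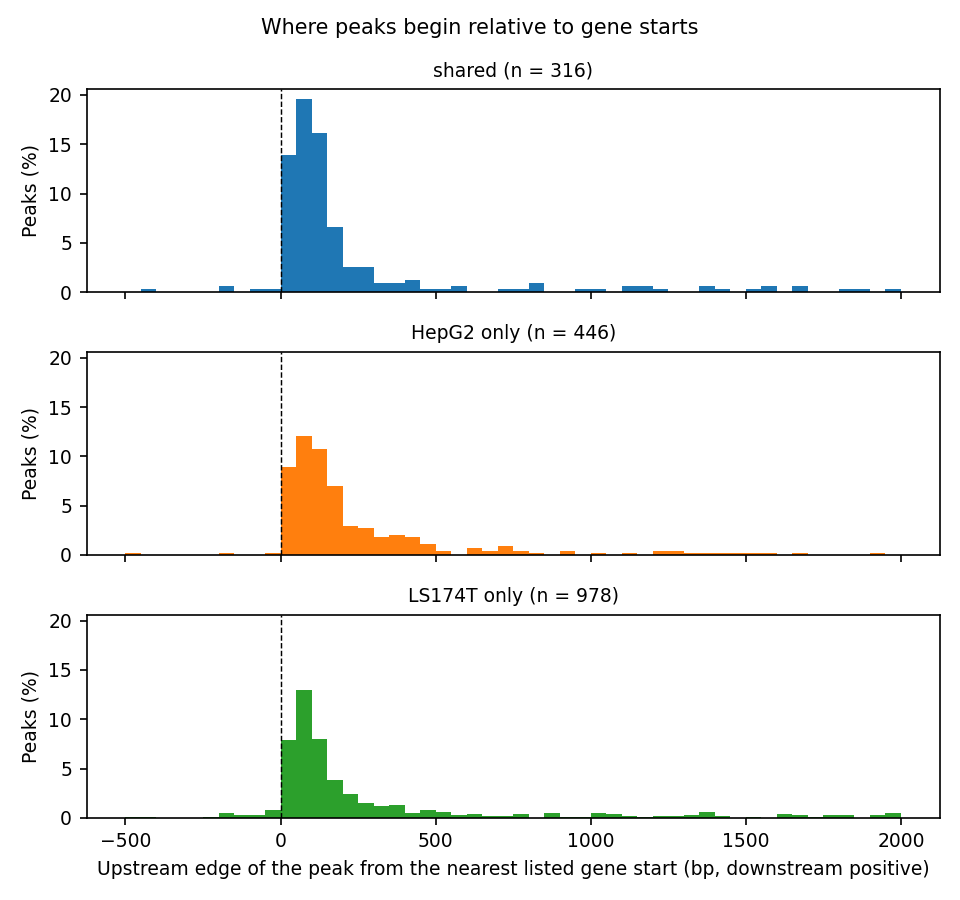
Distance from the nearest listed gene start to the upstream edge of each peak on the strand of its gene, in 50 bp bins from 500 bp before to 2000 bp after the start, for 316 shared, 446 HepG2-only and 978 LS174T-only peaks. Bars are percent of each set. All sets rise just after the dashed start line, and 56.3% of shared peaks begin within 0 to 200 bp of it. Summits had to lie in a gene span, so peaks wholly before a span are left out and the rise is partly set by the rule.

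Letters at the starts were counted on the strand of the gene only. A C at the start followed by 4 bases that were each C or T occurred at 22 of the 178 starts with a member 0 to 200 bp downstream (12.4%), at 12 of 174 starts with a HepG2-only peak there (6.90%), at 37 of 320 with a LS174T-only peak there (11.6%) and at 1008 of all 22198 listed coding-gene starts (4.54%). The 22 included genes of ribosomal proteins, of the ribosome-associated RACK1, of the nascent chain factor BTF3 and of the chaperonin subunit CCT4. Nearest starts of members over 1000 bp away had the same letters in 13 of 85 cases (15.3%), so they were not confined to starts with a peak beside them. TATAA in the 40 bases before the start occurred at 33 of 178 starts with a member (18.5%), at 14 of 174 (8.05%) with a HepG2-only peak, at 22 of 320 (6.88%) with a LS174T-only peak and at 1136 of 22198 listed starts (5.12%). Replication histone genes supplied 17 of the 33, at 18 histone starts, and the remaining 16 came from 160 starts (10.0%). Among those 16 were the endoplasmic reticulum chaperone genes CALR, HSPA5 and P4HB, the metal-binding MT2A, the glucose transporter SLC2A1 and the transcription factor JUND. Over all listed starts, TATAA occurred at 50 of 68 replication histone starts (73.5%) and at 1086 of 22130 others (4.91%). Starts with HepG2-only or LS174T-only peaks were not split by histone genes, so TATAA cannot be called a trait of shared starts. The letters do not overlap, since one is counted before the start and the other from it, and a match is a description, not a working site. Median GC content of the 300 bases around the start was 68.2% for the 178, 67% and 68.5% beside HepG2-only and LS174T-only peaks, and 62.3% over all listed starts.

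By the summit, the planned measure, 202 of 316 shared peaks (63.9%, 58.4 to 69.2%) lay within 1000 bp of the start of the gene span, against 213 of 446 HepG2-only peaks (47.8%, 43.0 to 52.5%). The shares differed by 16.2 points, with an adjusted p of 4.44e-05 (two-sided Fisher's exact test, Benjamini-Hochberg over 7 tests). Seen from LS174T, 200 of 317 shared peaks (63.1%) and 390 of 978 LS174T-only peaks (39.9%) lay there, a difference of 23.2 points with an adjusted p of 4.52e-12. Shared peaks were thus nearer to gene starts than the peaks of either line alone. The units of these tests are peaks of 1 list per line, not replicate cultures, so the p-values say nothing about spread between libraries. Position and depth distributions had been looked at before the tests were run, so they were not blind tests.

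Depth moved with sharing and with position. Reads at the summit, worked out from the deposited fold and p-value, had a median of 13 in shared HepG2 peaks (3 to 4408) and 9 in HepG2-only peaks, and 13 in their LS174T partners against 10 in LS174T-only peaks. The share of HepG2 coding-gene peaks that were shared was 26.2% under 10 reads, 44.2% at 10 to 19 and 64.7% at 20 or more. Within these depth classes the start share was 77.2% in shared and 50.4% in HepG2-only peaks under 10 reads, 62.0% and 47.0% at 10 to 19, and 50% (39 of 78) and 37.5% (18 of 48) at 20 or more, where the unadjusted p of Fisher's exact test was 0.199. Against LS174T-only peaks the shares were 78.9% and 52.7%, 66.4% and 32.9%, and 44% and 23.2% in the same classes. Starts were therefore more frequent among shared peaks in every depth class, and less frequent in deeper peaks of every set.

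**Figure D2:**
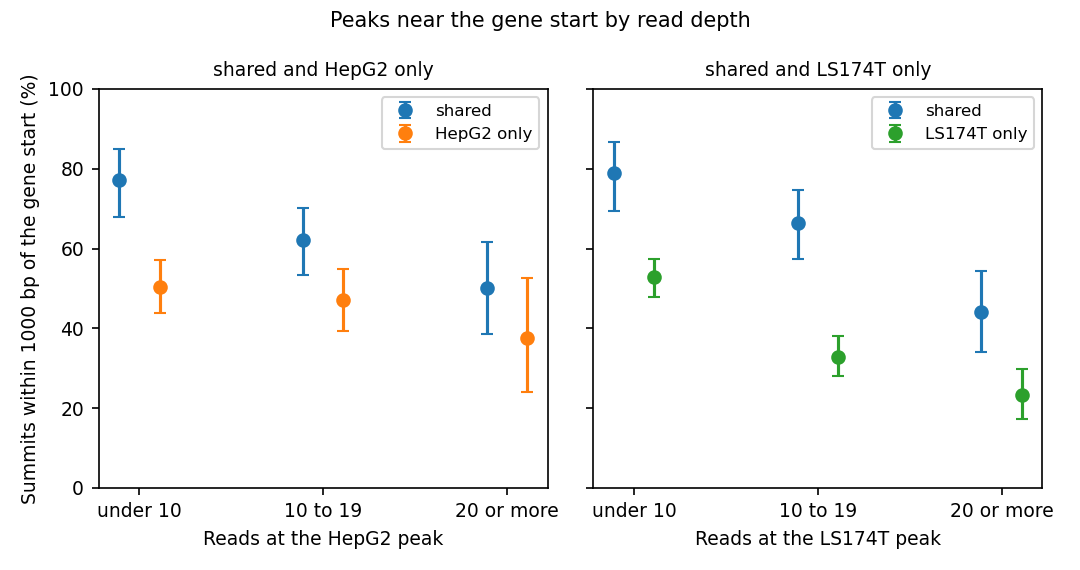
Share of peaks with the summit within 1000 bp of the gene start (percent, vertical axis) by reads at the peak (horizontal axis), for shared against HepG2-only peaks on the left and shared against LS174T-only peaks on the right. Points are shares and bars 95% Clopper-Pearson intervals, which cover counting error only. Shared peaks lie higher in each class, from 77.2% against 50.4% under 10 HepG2 reads to 50% against 37.5% at 20 or more.

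At the other end of the gene, 68 of 316 shared peaks (21.5%) had the summit within 1000 bp of the 3′ end, against 68 of 446 HepG2-only peaks (15.2%). The adjusted p was 0.0321 (Fisher's exact test), but the difference of 6.27 points fell to -0.042 points, with an adjusted p of 1, in gene spans of at least 10000 bp. Against LS174T-only peaks the shares were 22.1% (70 of 317) and 20.4% (200 of 978), with an adjusted p of 0.526, and in spans of at least 10000 bp shared peaks had the lower share, by -7.16 points, with an adjusted p of 0.00816. The sign turned within 2000 bp and without replication histone genes too, at -2.20 and -1.97 points. Gene length differed between the sets, with a median span of 20206 bp for shared, 40914 bp for HepG2-only and 25251.5 bp for LS174T-only peaks. In all, 179 shared peaks lay near the start alone, 45 near the end alone, 23 near both and 69 near neither. EEF2, the elongation factor that moves the ribosome along mRNA, had a member 474 bp from its end with 48 reads in HepG2 and 106 in LS174T, and CFL1, the actin-severing cofilin, had one 474 bp from its end with 56 and 49 reads. In HSP90AB1, a cytosolic chaperone gene, the summit was 156 bp from the end, with 23 HepG2 and 46 LS174T reads. COX6B1 and ATP5MC2, subunits of cytochrome c oxidase and of ATP synthase, had summits 34 and 55 bp from the end.

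Partner summits were a median of 24 bp apart (0 to 780). They lay within 10 bp of each other in 145 members and within 50 bp in 292, and 29 members had the same start and end in both lists. The overlap had a median of 201 bp, and 2 members met more than 1 LS174T peak. Members were selected on overlap, which bounds these distances, so they are a description and no measure of agreement between the lines. At the edge of the rule, PPP4R3A, ANP32E and PRRC2C were included with overlaps of 9, 11 and 13 bp, and COP1, PTPA and USP9X were left out with gaps of 5, 10 and 28 bp.

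A shared peak occurred in 382 of 20046 protein-coding genes (1.91%). In 19 gene lists, chosen with earlier results of these data known, the share was 36.4% for glycolysis (8 of 22), 30% for epithelial keratins (3 of 10), 29.0% for replication histones (20 of 69), 28.1% for nuclear genes of oxidative phosphorylation (9 of 32), 25% for chaperones (9 of 36) and 24.1% for ribosomal proteins (19 of 79). Actin and tubulin genes had 8 of 38, fatty acid and sterol synthesis 4 of 20, translation factors 7 of 38, hnRNP, SR and other RNA-binding proteins 8 of 53, junction proteins 5 of 35 and the ferritin, metallothionein and redox list 3 of 25. Abundant transcripts give more reads, and expression was not measured here. Colon epithelium genes had 2 of 30 (TFF1 and EPCAM), cell cycle genes 2 of 27 (CCND1 and CDKN1A), ubiquitin and proteasome genes 1 of 19 (USP22), and PXR with its partner proteins 1 of 24 (HSP90AB1). ZNF zinc finger genes had 4 of 509 (0.786%), below the share of all coding genes. None of 33 transcription targets of PXR, such as the drug-metabolising CYP3A4 and the efflux pump ABCB1, and none of 30 genes of proteins secreted by hepatocytes held a shared peak. At the 1.91% of all coding genes, lists of this size would be likely to hold few or none. Their empty counts therefore do not set these lists apart.

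**Figure D3:**
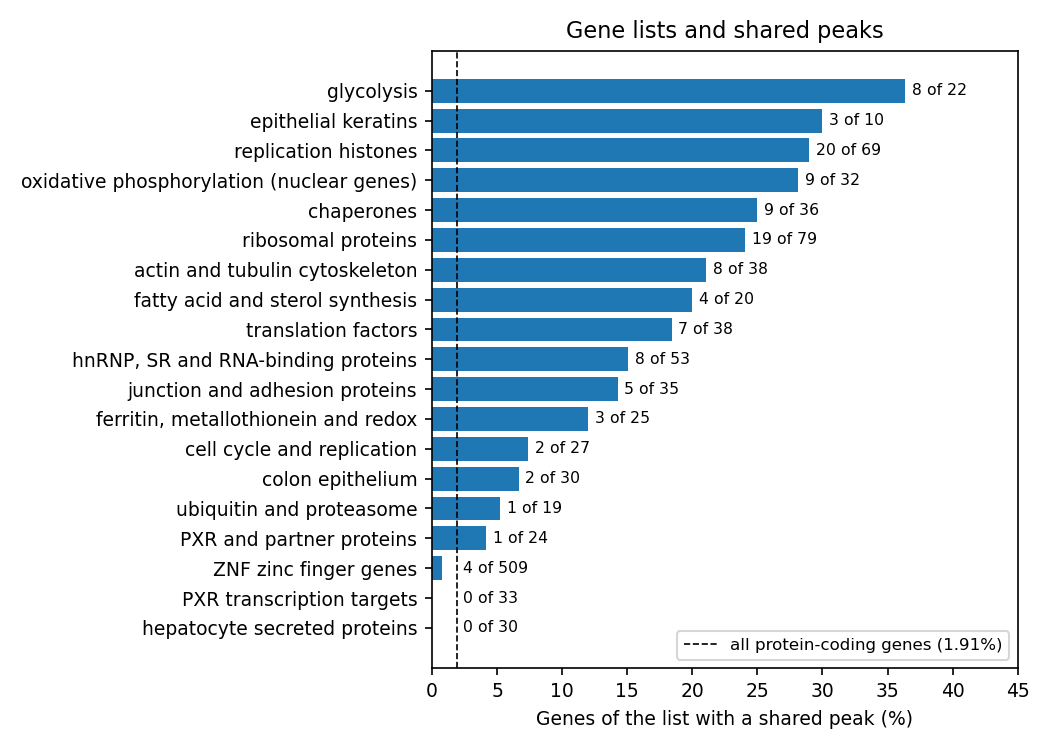
Percent of the genes of each list that held a shared peak (bars, with counts), and the share over all protein-coding genes (dashed line, 1.91%). Glycolysis leads with 8 of 22 genes, and the PXR target and hepatocyte secreted lists hold 0. Lists of that size would be likely to hold few or none at the share of all genes.

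Reads were compared as a ratio of HepG2 to LS174T at each member, with no scaling for library size because the totals were not known. The median ratio was 0.944 (quartiles 0.583 and 1.40), against 0.909 over all 600 shared HepG2 peaks. Reads were higher in HepG2 at 175 of the 417 members, higher in LS174T at 215 and equal at 27, and the counts by gene list below stand beside these. HepG2 reads were at least 2 times LS174T reads in 56 members (13.4%), close to the 13.5% of all shared peaks, and LS174T reads were at least 2 times HepG2 reads in 83 (19.9%), below the 24% of all shared peaks. Over the 417 members, log2 reads in the lists had a Pearson r of 0.679 and a Spearman rho of 0.522, given as a description since members are not independent. With 1 list per line, no member's ratio could be set against replicate spread.

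**Figure D4:**
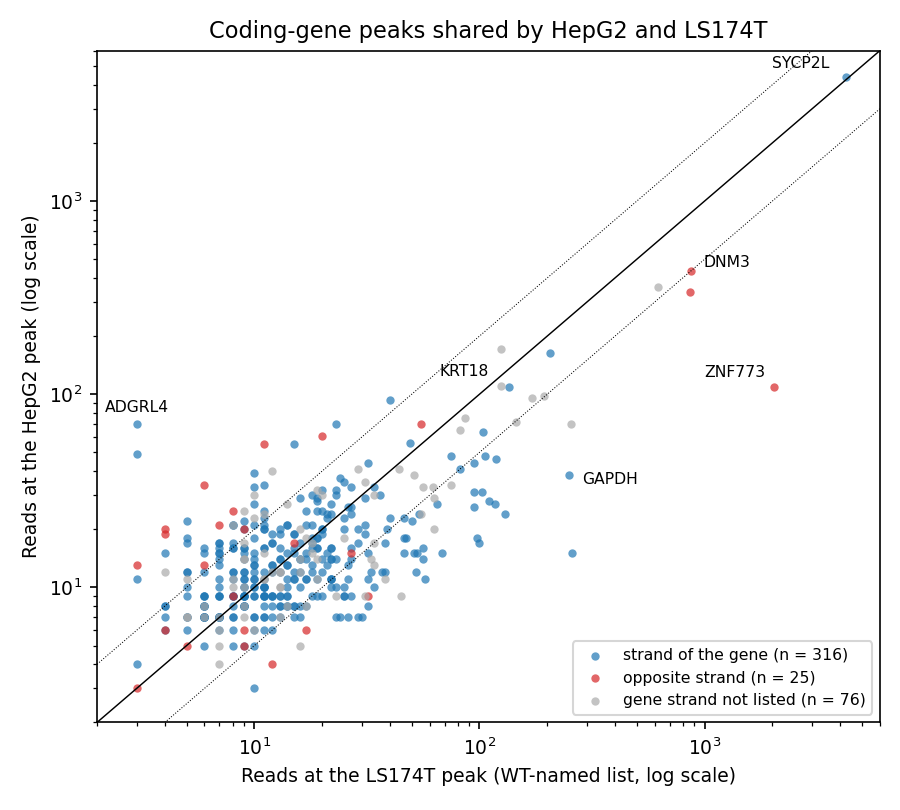
Reads at each shared peak in HepG2 (vertical, log scale) and in its LS174T partner (horizontal, log scale), for 417 members coloured by strand. The solid line marks equal reads and the dotted lines a ratio of 2 either way. SYCP2L lies highest at 4408 and 4233 reads, and ZNF773 lies far to the LS174T side at 109 and 2035.

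In replication histone genes, which package newly copied DNA, reads were higher in HepG2 at 14 of their 20 members, higher in LS174T at 5 and equal at 1, with a median ratio of 1.5. H3C2 had 37 reads in HepG2 and 24 in LS174T. H2AC21 had 27 and 10 reads, and H2AC7 22 and 9. H1-4, a linker histone gene, was near even at 33 reads in HepG2 and 34 in LS174T. All 18 histone members with a listed start began 0 to 200 bp downstream of it, and since these genes are short, 15 of the 18 summits also lay within 1000 bp of the end. Histone genes of a class are near-identical copies, so the split of reads among them is uncertain.

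Ribosomal protein genes had higher reads in LS174T at 18 of 21 members, higher reads in HepG2 at 2 and a median ratio of 0.613. RPS2 had 75 reads in HepG2 and 86 in LS174T. RPLP1, a protein of the ribosomal stalk, had 46 and 118 reads, and RPS12 had 11 and 57. RPS3, a protein of the small subunit near the mRNA entry, ran the other way with 30 reads in HepG2 and 18 in LS174T at one of its 2 members. Only 3 of the 16 ribosomal members with a listed start began 0 to 200 bp downstream of it (RPS12, RPLP1 and RPS16), and 4 of the 16 had the summit within 1000 bp of the end. Many processed pseudogenes copy these mRNAs, and whether reads were lost to or gained from copies was not tested.

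Glycolytic genes had higher LS174T reads at 9 of 11 members, 8 of them by at least 2 times, with a median ratio of 0.4. GAPDH, which oxidises glyceraldehyde 3-phosphate, had 38 reads in HepG2 and 251 in LS174T, 525 bp from its end. SLC2A1, the glucose transporter GLUT1, had 17 and 100 reads, 192 bp from its start. ENO1, the enolase gene, had a member at each end, with 10 and 25 reads near the start and 12 and 52 near the 3′ end. PFKL, the liver form of phosphofructokinase, was higher in HepG2, at 19 against 15 reads.

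Chaperone genes had higher LS174T reads at 11 of 12 members and equal reads at the other, CCT4, with 10 in each. HSPA5, the main chaperone of the endoplasmic reticulum, had 15 reads in HepG2 and 46 in LS174T, and CALR, a calcium-binding chaperone, had 20 in HepG2 at each of its members against 25 and 39 in LS174T. Actin and tubulin genes had higher LS174T reads at 9 of 12 members, with 96 and 171 reads at the deeper ACTB member and 27 and 65 at PFN1, the actin-binding profilin. Translation factor genes were mixed, at 4 members higher in HepG2 and 5 in LS174T, with 25 and 11 reads at the release factor GSPT1. The RNA-binding list had 8 to 21 HepG2 reads and 11 to 29 LS174T reads (medians 13 and 16), and HNRNPD, which binds AU-rich elements, had 21 and 18. Oxidative phosphorylation genes had higher LS174T reads at 6 of 9 members, not far from the share over all members, with 13 and 34 reads at ATP5F1B, a catalytic subunit of ATP synthase, and 17 and 9 at COX6C.

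Genes of fatty acid and sterol synthesis had higher HepG2 reads at 5 of 7 members, which include 2 of the 3 SCD members described below. FASN, the fatty acid synthase, had 41 HepG2 and 29 LS174T reads. The ACSL3 member, with 61 and 20 reads, lay on the strand opposite to this acyl-CoA synthetase gene. Junction genes were split: CLDN3, a tight junction claudin, had 55 reads in HepG2 and 15 in LS174T, whereas the adhesion protein EPCAM had 11 and 38. CTNNB1, which encodes β-catenin, had 9 and 25 reads and began 28 bp past its start.

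The 7 genes with 3 members were 2 keratin genes, an actin, an aldolase, a claudin, a disulfide isomerase and a desaturase gene, and showed how positions compare within a transcript. KRT8 had 164, 64 and 109 reads in HepG2 and 205, 104 and 135 in LS174T, from the upstream member at chr12:52904586-52905011 to the one nearest the 3′ end. KRT19, another simple epithelium keratin, had 72, 33 and 34 reads in HepG2 and 146, 62 and 75 in LS174T from high to low coordinate, and its gene strand is not listed. In both keratins the member at the highest coordinate was the deepest in either line. KRT18, the partner filament of KRT8, had 2 members, with 110 and 41 reads in HepG2 and 125 and 44 in LS174T.

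Actin and aldolase were lower in HepG2 at every member. ACTG1, cytoplasmic gamma actin, had 27, 28 and 24 reads in HepG2 and 117, 110 and 130 in LS174T from the start towards the end. The ratio was alike at each member, but at the middle one the summits of the lines lay 780 bp apart. ALDOA, the aldolase of glycolysis, had 23, 31 and 44 reads in HepG2 and 40, 95 and 95 in LS174T, where the last 2 members met the same peak. P4HB, protein disulfide isomerase, had 17, 16 and 16 reads in HepG2 and 38, 22 and 56 in LS174T. CLDN4, another claudin, was near even, with 30, 30 and 25 reads in HepG2 and 36, 23 and 20 in LS174T. SCD, which makes monounsaturated fatty acids, had 35, 23 and 26 reads in HepG2 and 25, 21 and 27 in LS174T, and its first member began 29 bp past the start while the others lay over 10000 bp downstream.

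**Figure D5:**
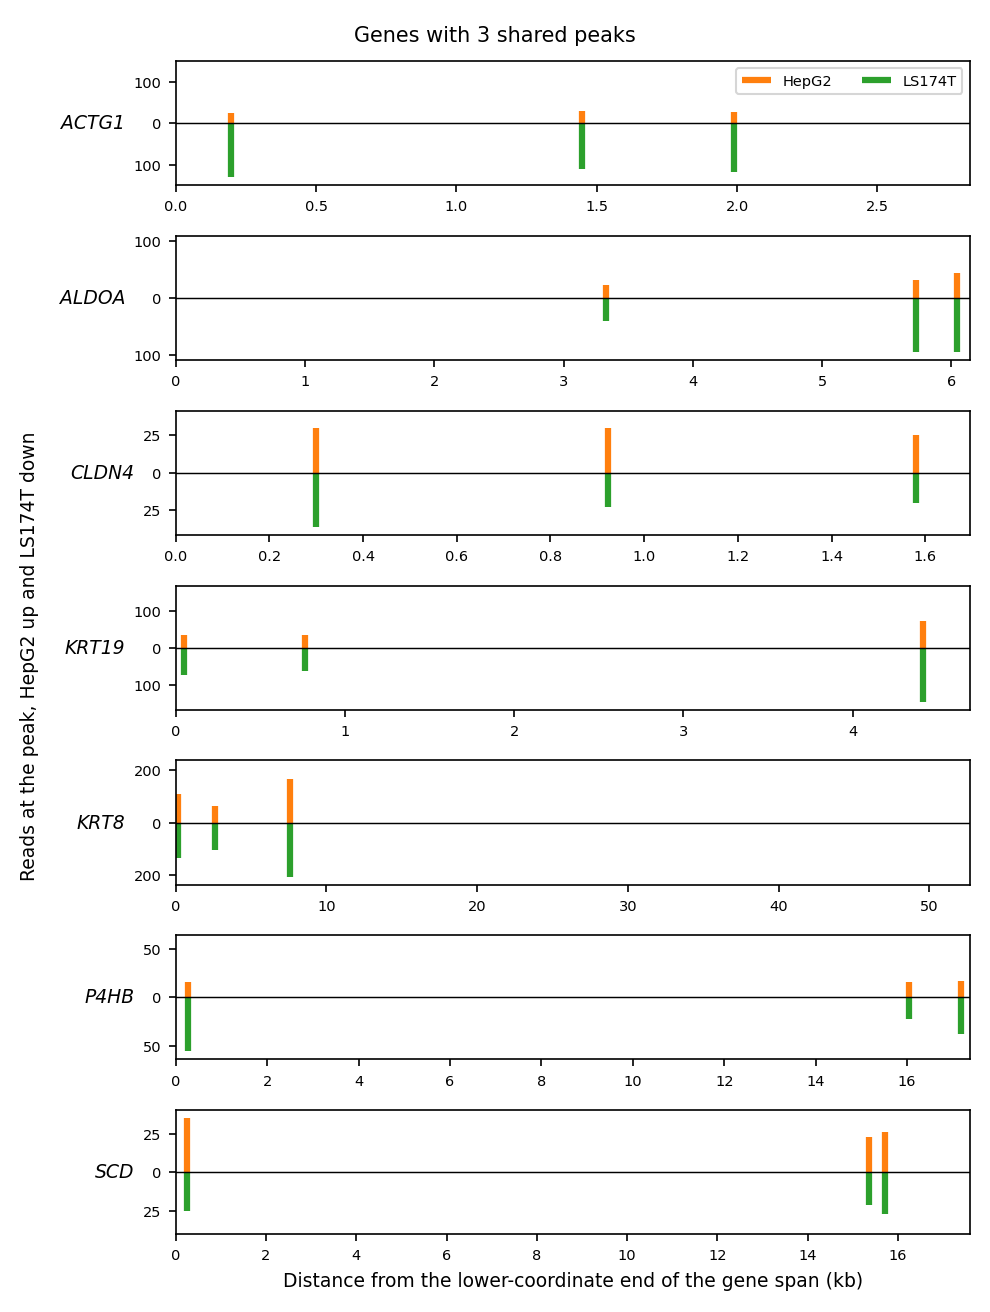
Reads at the shared peaks of the 7 genes with 3 members (vertical, HepG2 upward, LS174T downward, on a scale of its own for each gene) against the distance of the HepG2 summit from the lower-coordinate end of the gene span (kb). ACTG1 bars reach 24 to 28 reads in HepG2 and 110 to 130 in LS174T, and CLDN4 bars are near even.

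The highest ratios, among members with at least 20 reads in 1 list, belonged to ADGRL4, an adhesion receptor gene, with 70 reads in HepG2 and 3 in LS174T, and to ANKRD42 with 49 and 3. SETD3, GALK2 and CNTNAP5 followed with 34 and 6, 20 and 4, and 55 and 11 reads, all on the strand opposite to the gene. NGB, which encodes neuroglobin, had 22 and 5 reads, and SLC7A5 39 and 10. The lowest ratios were those of ZNF773 with 109 reads in HepG2 and 2035 in LS174T, CWF19L1 with 15 and 258, SPOCK3 with 18 and 98, and RPS20 with 9 and 45, beside GAPDH, SLC2A1, ACTG1 and RPS12. Several of these extremes were lone stacks, peaks that held at least 90% of all reads in the 10000 bp around them. In ADGRL4, ANKRD42, ZNF773 and SPOCK3 every read of that window lay at the summit, in both lists.

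Most shared peaks lay on the strand of their gene. Of the 341 members whose gene strand is listed, 316 (92.7%) were on it and 25 opposite, and 76 more had no listed strand and enter no share of position or strand. HepG2-only peaks were on the gene's strand in 446 of 532 cases (83.8%), a difference of 8.83 points with an adjusted p of 0.000245 (Fisher's exact test). It was 0.370 points at 10 or more reads and 1.78 points without lone stacks, with adjusted p values of 1 and 0.129. Against LS174T-only peaks, at 978 of 1006 (97.2%), the shared LS174T peaks had the lower share, 317 of 342 (92.7%), by -4.53 points with an adjusted p of 0.000758, and this became 0.295 points, with an adjusted p of 1, without lone stacks.

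Opposite-strand members were nearly all lone stacks, 22 of 25 in HepG2 against 21 of the 316 on the gene's strand. This was not particular to shared peaks. Opposite-strand peaks were lone stacks in 75 of 86 HepG2-only and 22 of 28 LS174T-only cases. DNM3, a dynamin gene, had 435 reads in HepG2 and 873 in LS174T at such a stack, far inside the gene. LOC124901446 had 337 and 859 reads. SOX12, a transcription factor gene, had 70 and 55, and ATXN1 25 and 8. Their summits were 0 to 2 bp apart between the lines. The deepest member of all, in SYCP2L at chr6:10887604-10887803, was on the strand of this synaptonemal complex gene and was a lone stack too, with 4408 of 4408 window reads in HepG2 and 4233 of 4233 in LS174T. ARHGAP39, whose strand is not listed, had 361 of 370 window reads in HepG2 and 620 of 626 in LS174T. Whether reads of repeats, copies or unannotated RNAs made these stacks was not tested.

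The KO-named list met 12 of the 418 LS174T peaks that overlap a member (2.87%) and 6 of 1236 LS174T-only peaks (0.485%), a difference of 2.39 points with an adjusted p of 0.000416 (Fisher's exact test). All of them had at least 20 reads in the WT-named list. There the counts were 12 of 136 and 6 of 248, with an unadjusted p of 0.00929 (Fisher's exact test). This class has no upper limit, and shared LS174T peaks reached 4233 reads but LS174T-only peaks 125. The comparison within it is therefore not at equal depth. ACTG1 had KO-named peaks of 73 and 27 reads, at WT-named peaks of 117 and 130. ZNF713 was the member with more KO-named than WT-named reads, 65 against 38, and had 12 in HepG2. RPLP1 had 33 reads in the KO-named, 118 in the WT-named and 46 in the HepG2 list. GAPDH and ALDOA had 24 KO-named reads each, KRT8 18, KRT19 14, RPS19 11 and SLC2A1 9. SYCP2L, at 4233 reads in the WT-named list, had 9 in the KO-named list. CYTB, the mitochondrial cytochrome b gene, had 21 KO-named reads, 124 WT-named and 171 HepG2 reads at a member on the minus strand. Because the KO-named list is attached to the wild-type PXR library, these overlaps cannot be tied to the presence or absence of PXR.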

How the data were processed

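The authors deposited peak lists with a score, a fold enrichment (ratio over local background), the −log10 p and −log10 q, and the summit offset (other: bases from the peak start). Per the submitters' processing notes, cutadapt, BWA and MACS2 were used with hg38. Neither versions nor settings are given in the sources used here. In all 3706 human peaks the score was the deposited −log10 q times 10 without its decimals.

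Reads at each summit were worked out from the relations MACS2 uses, in which fold is (n + 1) over (λ + 1) and the p-value is a Poisson tail beyond n, λ in steps of 0.02 (200 bp extension, 10000 bp window). A unique n was found for 3705 of 3706 human peaks, and the method was tested on simulated data. PCR copies cannot be told apart, so intervals cover counting error only. Library totals were not known.

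Gene spans came from the RefSeq gene table (GRCh38.p14) and strand and starts from the RefSeq promoter table, which lists 15842 of 20046 placed coding genes. Exons and UTRs were not used here. Coordinates are 1-based. Shares were compared with two-sided Fisher's exact tests, adjusted over 7 tests, using Python 3.11.15, pandas 2.3.3, scipy 1.17.1 and statsmodels 0.14.6. Peaks are not replicates, and each line had 1 list.

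The members and gene lists were chosen with earlier results of these data known, and position and depth distributions had been looked at before the tests were run. Named genes were the 15 members with most reads in each line, the 8 highest and 8 lowest ratios with at least 20 reads in 1 list, genes with 3 members, up to 6 genes per list, members meeting the KO-named list, up to 8 on the opposite strand and up to 8 covering a start, and the 3 members nearest each side of the overlap rule. Genes named for letters at their start, ends of genes and the sequences shown were chosen after their values were seen.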

Additional observations from a re-analysis of the deposited data

How the results depend on the processing

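Of 56 alternative results, 42 kept their direction and their side of the threshold or stayed within 1.5 times the reported value, 8 lost a call in the same direction, 5 reversed, of which 1 passed the threshold in the new direction, and 1 count moved further. The number of shared peaks was 113 at a −log10 q of at least 10 in both lists and 293 to 420 under the other rules of overlap, strand and q. The start shares kept direction and call under every alternative run. The depth class of 20 or more HepG2 reads, given above, was not among these alternatives. There the difference in start share from HepG2-only peaks had an unadjusted p of 0.199 (Fisher's exact test). The difference in strand share from HepG2-only peaks was 0.370 points at 10 or more reads (adjusted p = 1), 4.62 at a −log10 q of at least 5 (adjusted p = 0.0652) and 1.78 without lone stacks (adjusted p = 0.129, Fisher's exact test). That from LS174T-only peaks reversed to 0.295 without lone stacks (adjusted p = 1, exact test). The 3′ end difference from HepG2-only peaks was 3.86 within 500 bp (adjusted p = 0.173), 6.14 within 2000 bp (0.0662), 3.33 with 1 peak a gene (0.306), 3.83 at 10 or more reads (0.438), 5.86 without lone stacks (0.0753) and -0.042 in spans of at least 10000 bp (1), all by the exact test. From LS174T-only peaks, where it was not called, it was -7.16 in spans of at least 10000 bp (0.00816), -2.20 within 2000 bp (0.479) and -1.97 without replication histone genes (0.508). By construction the longer spans leave out short genes, and the 10-read and q limits leave fewer peaks. Leaving out lone stacks or replication histones and using the nearest listed start were chosen after seeing the data. No paired analysis was possible because each group had 1 list with no values per library, and leaving out replicates was not possible for the same reason. Depth limits the ratios, since 128 members had fewer than 10 reads in HepG2 and 129 in LS174T.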

Other observations

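CYTB held members on both strands of the mitochondrial genome, with 98 reads in HepG2 and 193 in LS174T on the plus strand, and 171 and 124 on the minus strand. The LOC102724250 member on chromosome 1, with 70 reads in HepG2 and 256 in LS174T, lay in the gap between the pseudogenes MTND2P28 and MTCO1P12, copies of mitochondrial genes. These members were named after their values were seen, and no explanation was tested.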
